A study of Mus musculus with 6 samples.

Results

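Imprinted genes are transcribed mainly from the copy inherited from one parent, and many of them set how much a tissue grows. Cdkn1c, H19, Igf2, Igf2r, Meg3, Dlk1, Grb10, Ndn, Peg3 and Plagl1 were chosen by gene name as growth-control genes of this kind, and 9 of these 10 names had a row among the 27198 genes of the table. Igf2 had no row in the table used here and was not analysed here. The data were RNA sequencing counts of hematopoietic stem cells (HSCs), from which all blood lineages descend, in 3 control (Ctrl) and 3 long-term ferulic acid (l-FA) libraries. All mice were male, wild-type C57BL/6 animals of 8 to 10 weeks that had not been irradiated. Ctrl mice were given solvent, and l-FA mice received ferulic acid, a plant phenolic antioxidant, as daily intraperitoneal injections of 50 mg/kg over 30 days. The sorted cells were lineage-negative, Sca-1-positive, c-Kit-positive, Flk2-negative and CD34-negative in both groups. The number of mice behind a library is not given in the sources used here, so the p-values below measure only the spread between libraries, which may be technical.

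In adult HSCs a network of imprinted genes is best known for holding the cells in quiescence. Cdkn1c encodes p57, an inhibitor of cyclin-dependent kinases, and the H19 RNA and the receptor Igf2r both limit signaling by the growth factor IGF2. Imprinting is set by DNA methylation at control regions, and in several domains a long noncoding RNA from one parental copy silences protein-coding neighbors on the same chromosome.

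Library totals ranged from 19287735 to 20380610 counts, and 1 CPM, the library-scaled unit used below after TMM normalization, stood for 18.7 to 21.0 counts. All 15 HSC marker genes examined passed the low-count filter, and 10 of them were higher and 1 lower in l-FA, where 25.5% of all genes tested were called higher and 25.0% lower. Of 10 neutrophil and monocyte genes 9 were lower, and Lyz2 was higher (log2 fold change 0.30, edgeR adjusted p = 0.000102). The summed level of these 10 genes was 23061 to 23996 CPM in the Ctrl libraries and 6048 to 6350 CPM in the l-FA libraries. Fewer cells of a type and less RNA per cell cannot be told apart in bulk libraries, and the part of this shift in the imprinted genes was not tested. Endothelial, erythroid and B cell lists reached up to 12.0, 42.4 and 66.0 summed CPM in any library. Among 5 endothelial genes, of which 4 were tested, Flt4 fell from 42, 37 and 52 counts to 0, 0 and 1, Kdr rose by 0.78 on the log2 scale (edgeR adjusted p = 0.0141), and Stab2 and Plvap did not pass. Flt4 passed the low-count filter only through its Ctrl libraries, so its fall is not independent of its being tested. Of 7 erythroid genes tested 2 rose and 1 fell, and of 3 B cell genes tested 1 rose. Libraries of a group lay close together (median chi-square per gene 0.89 to 1.09 between 2 libraries of a group, and 8.2 to 8.83 between libraries of different groups).

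Of the 9 members listed, 8 passed the low-count filter and were tested. Cdkn1c, Igf2r and Ndn were higher in HSCs of l-FA-treated mice, by 53.4%, 44.2% and 45.5% in fitted fold change. Peg3 and Dlk1 were lower, Peg3 to nearly no counts. Grb10, Meg3 and Plagl1 did not pass the test, and H19 was close to absent from all 6 libraries. Thus 5 of 8 members tested (62.5%) were called at an adjusted p under 0.05 in edgeR's quasi-likelihood test, where 50.5% of the 16520 genes tested were called, so the share is near the background and is no result about these genes as a group. The 3 higher members compare with 25.5% of all genes called higher, and the 2 lower members with 25.0% called lower. Past a 2-fold change as well, 1 member (Peg3) was called, against 11.8% of all genes. Peg3 passed the low-count filter only through its Ctrl libraries, so its fall is not independent of its being tested. In 5 of the 8 members the 2 groups of libraries did not overlap in CPM, which held for 60.3% of all genes tested. The median log2 fold change of the 8 members was 0.09, beside 0.0035 over all genes tested. By the parental copy each gene is known for, the maternally expressed Cdkn1c and Igf2r rose, and of the paternally expressed members Ndn rose while Dlk1 and Peg3 fell. The counts do not separate the parental copies, so imprinted expression in these cells was not measured, for the members or for the other genes below.

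**Figure D1:**
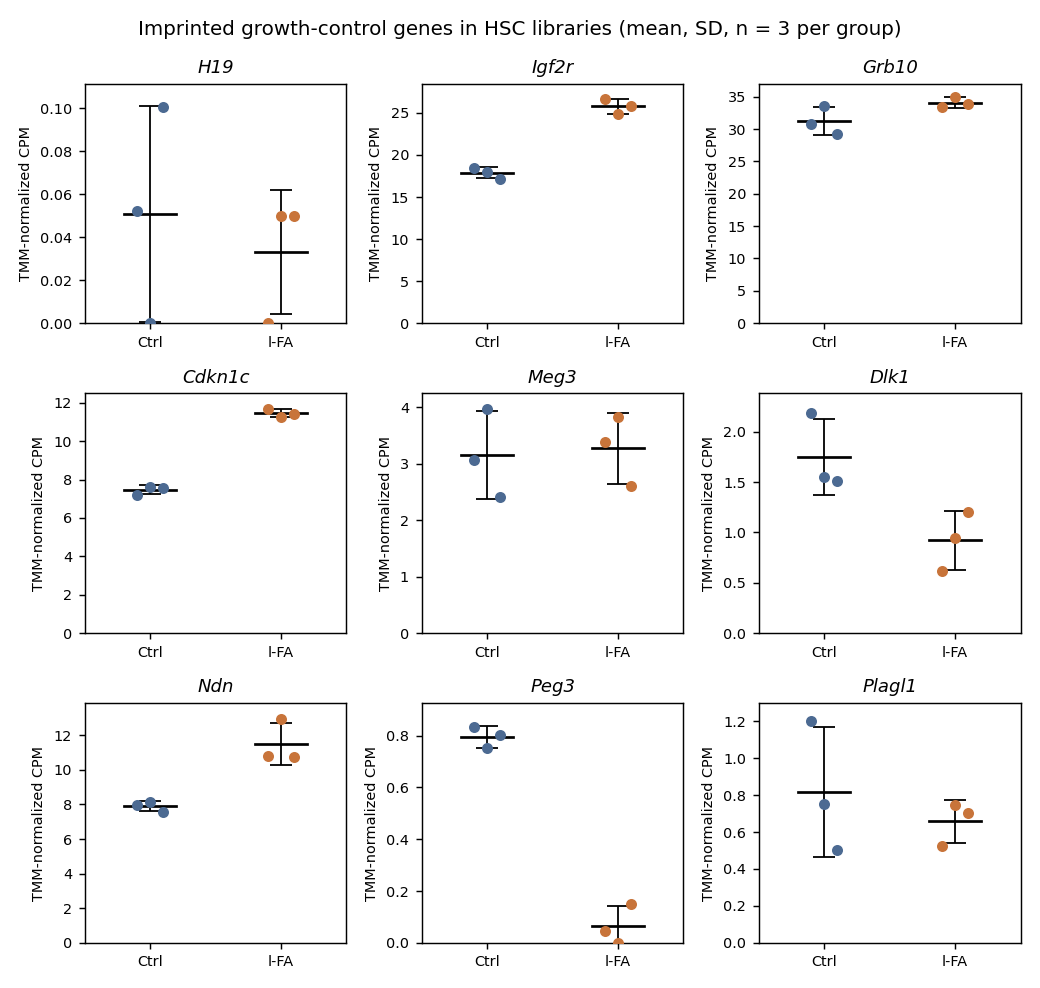
TMM-normalized CPM of the 9 listed members in each library (points), with the mean and SD of 3 libraries per group (lines and bars) on axes that start at 0. The groups do not overlap for Igf2r, Cdkn1c and Ndn, which are higher in l-FA, nor for Dlk1 and Peg3, which are lower; H19 stays at or below 0.100 CPM.

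Sequence upstream of the start site is shown for the called members that the RefSeq promoter table (GRCm38.p6) holds, 4 genes that did not all move in the same direction. Whether these windows hold an imprinting control region was not examined. Each line gives the 250 bases before the transcription start, 5′ to 3′ on the gene's own strand, with every CG in capitals. Cdkn1c and H19 are not in that table.
Igf2r, chr17:12769707-12769956, strand -: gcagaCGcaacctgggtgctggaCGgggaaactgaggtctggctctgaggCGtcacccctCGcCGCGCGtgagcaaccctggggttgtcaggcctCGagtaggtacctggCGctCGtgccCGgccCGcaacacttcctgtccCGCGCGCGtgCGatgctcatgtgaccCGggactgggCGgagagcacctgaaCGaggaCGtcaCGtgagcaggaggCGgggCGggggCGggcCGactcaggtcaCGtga
Ndn, chr7:62348027-62348276, strand +: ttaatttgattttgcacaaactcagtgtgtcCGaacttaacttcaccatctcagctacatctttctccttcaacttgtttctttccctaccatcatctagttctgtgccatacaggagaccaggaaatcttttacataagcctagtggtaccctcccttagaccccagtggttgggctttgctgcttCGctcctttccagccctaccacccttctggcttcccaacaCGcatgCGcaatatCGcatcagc
Peg3, chr7:6730420-6730669, strand -: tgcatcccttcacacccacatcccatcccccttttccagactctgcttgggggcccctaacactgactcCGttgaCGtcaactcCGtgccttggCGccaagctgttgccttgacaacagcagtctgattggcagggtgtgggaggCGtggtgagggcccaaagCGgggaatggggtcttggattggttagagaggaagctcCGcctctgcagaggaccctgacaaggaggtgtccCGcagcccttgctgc
Dlk1, chr12:109452573-109452822, strand +: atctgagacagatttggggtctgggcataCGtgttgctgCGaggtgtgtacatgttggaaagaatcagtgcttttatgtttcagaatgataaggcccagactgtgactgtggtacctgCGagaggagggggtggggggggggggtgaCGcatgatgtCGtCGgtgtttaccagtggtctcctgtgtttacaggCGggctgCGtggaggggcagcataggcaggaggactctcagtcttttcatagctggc

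The Igf2r window held 27 CG and a G+C content of 69.2%, and 8.56% of the 32851 promoters of this length held at least as many. Ndn, which rose by a similar amount, held 5 (55.6% of promoters held at least as many), so Igf2r and Ndn did not share a CpG-dense upstream window. Cdkn1c, which also rose, has no window here, and bases after the start were not counted. Peg3 and Dlk1, both lower in l-FA, held 8 each (43.0%). The median promoter held 6. In the GENCODE M21 annotation the start of Usp29, a paternally expressed gene on the opposite strand, lies inside the Peg3 window. These are counts of letters in GRCm38.p6, and DNA methylation was not measured. The coordinates given with the expression values are those of the deposited table, for which the submitters' processing notes name GRCm39.

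Members of the insulin-like growth factor axis come first. Igf2r (ENSMUSG00000023830; chromosome 17, 12901293 to 12988551), the receptor that takes up IGF2 and delivers it to lysosomes, had 355, 335 and 342 counts in Ctrl and 559, 499 and 516 in l-FA. The lowest l-FA library was well above the highest Ctrl library. Its level rose from a Ctrl mean of 17.9 ± 0.670 CPM to an l-FA mean of 25.8 ± 0.872 (SD, n = 3). The log2 fold change was 0.53, with a standard error (SE) of 0.061 (edgeR adjusted p = 0.000598). The gene shares 28354 bases with Airn, a long noncoding RNA that is transcribed against Igf2r from the paternal copy and silences it there. Airn had 1, 0 and 3 counts in Ctrl and 17, 13 and 26 in l-FA. All l-FA libraries lay above all Ctrl libraries for Airn as well (log2 fold change 3.62, SE 0.65, edgeR adjusted p = 0.00392), but its Ctrl counts are at or under a floor of 3 counts, so that the fitted fold depends on the prior count. It was 4.82 on the log2 scale without Ctrl replicate 3 and 3.09 without Ctrl replicate 2, with the call held in both. The amplification kit does not mark the strand and the counting rule is not given in the sources used here, so reads of the shared stretch cannot be told apart. The mean count of Igf2r was higher by 181 in l-FA and that of Airn by 17.3, and Airn counts were 3.56% of Igf2r counts in the l-FA libraries.

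Grb10 (ENSMUSG00000020176; chromosome 11, 11880508 to 11988683), an adaptor that binds and restrains the insulin and IGF1 receptors, had 590, 626 and 583 counts in Ctrl and 701, 701 and 677 in l-FA. Scaled for library composition, Ctrl replicate 2 (33.6 CPM) overlapped the lowest l-FA library (33.4 CPM). The change did not pass the test (0.13 on the log2 scale, SE 0.064, edgeR adjusted p = 0.141), and it passed only without Ctrl replicate 2 (0.18, edgeR adjusted p = 0.0485).

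H19 (ENSMUSG00000000031; chromosome 7, 142129262 to 142131917), the maternally expressed RNA that lies beside Igf2, had 1, 0 and 2 counts in Ctrl and 0, 1 and 1 in l-FA. With at most 2 counts in any library it was at or under the floor of 3 counts in both groups, did not pass the filter, and no fold is given. Mir675, the microRNA gene inside H19, had 1 count over all 6 libraries.

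Of 15 other genes of the insulin-like growth factor axis, 14 were listed and 8 tested, of which 1 rose and 1 fell (2 of 8, against 50.5% of all genes). Igf1r, the main signaling receptor for IGF1 and IGF2, fell from 42.3 to 31.5 CPM (log2 fold change -0.43, SE 0.049, edgeR adjusted p = 0.000585). It had 777, 803 and 865 counts in Ctrl and 658, 644 and 620 in l-FA, with no overlap. Insr, the insulin receptor, rose by 0.77 (SE 0.23, edgeR adjusted p = 0.0303), although its CPM groups overlapped, with 423, 260 and 282 counts in Ctrl and 670, 434 and 637 in l-FA. The Insr call was lost without Ctrl replicate 2, Ctrl replicate 3, l-FA replicate 1 or l-FA replicate 3, with adjusted p from 0.0826 to 0.093 in edgeR. Among the RNA-binding proteins named for IGF2 mRNA, Igf2bp2 had 57 to 74 counts in Ctrl and 82 to 100 in l-FA and did not pass (0.37, edgeR adjusted p = 0.0542), and Igf2bp1 had at most 3 counts.

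Cdkn1c (ENSMUSG00000037664; chromosome 7, 143012076 to 143014787), which encodes the kinase inhibitor p57, had 138, 142 and 151 counts in Ctrl and 245, 226 and 228 in l-FA. All 3 l-FA libraries were above all Ctrl libraries, and the spread within each group was at or below counting error (chi-square over 3 libraries 0.281 in Ctrl and 0.149 in l-FA, where counting error alone has a median of 1.39). Its level was 7.46 ± 0.234 CPM for Ctrl against 11.5 ± 0.202 for l-FA (SD, n = 3). The log2 fold change was 0.62 (SE 0.073, edgeR adjusted p = 0.000692) and ranged from 0.59 to 0.64 when any single library was omitted. Gm44732, a long noncoding gene listed over 892 bases of Cdkn1c, never exceeded 2 counts. Genes whose centered log2 CPM profile over the 6 libraries was closest to that of Cdkn1c were Parp14, Kdm3a and Gbp2, with root mean square differences of 0.021, 0.023 and 0.025. They were chosen from 11447 genes of at least 5 CPM, and a profile over 6 libraries in 2 groups mainly repeats the group difference.

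Several imprinted neighbors of Cdkn1c, listed within 1 Mb of it, can be set beside it. Kcnq1ot1, the paternally expressed RNA known for silencing this domain in cis, had 545, 366 and 576 counts in Ctrl and 370, 282 and 376 in l-FA. Its CPM groups did not overlap, and it was lower in l-FA by 0.61 on the log2 scale (SE 0.18, edgeR adjusted p = 0.0284). That call was lost without Ctrl replicate 1, Ctrl replicate 3, l-FA replicate 1 or l-FA replicate 2 (adjusted p from 0.0651 to 0.0838 in edgeR). As for Airn, the strand of the reads is not known, and Kcnq1, which gives Kcnq1ot1 its name, had no row. Reads of another gene over the Kcnq1ot1 locus therefore cannot be set apart. The ratio of Cdkn1c to Kcnq1ot1 counts, which no scaling between libraries can move, was 0.253, 0.388 and 0.262 in Ctrl and 0.662, 0.801 and 0.606 in l-FA. Every l-FA ratio was above every Ctrl ratio (two-sided exact permutation p = 0.1, the smallest that 3 libraries against 3 allow). This separation follows from the CPM of each gene not overlapping between groups, in opposite directions, so the ratio adds no further test. Slc22a18, a transporter gene beside Cdkn1c, rose from 104, 108 and 128 counts to 241, 205 and 207 (log2 fold change 0.86, SE 0.10, edgeR adjusted p = 0.000651). Osbpl5, a lipid-transfer protein gene, rose by 0.38 (SE 0.046, edgeR adjusted p = 0.000744), and Tspan32 rose by 0.19 (edgeR adjusted p = 0.0128, 0.0511 without Ctrl replicate 1). Phlda2, a brake on placental growth, had 56 to 72 counts in Ctrl and 61 to 97 in l-FA and did not pass (0.11, edgeR adjusted p = 0.684), nor did Cd81 or Tssc4. Ascl2, a transcription factor gene, fell from 33, 28 and 32 counts to 14, 9 and 13 (log2 fold change -1.44, SE 0.21, edgeR adjusted p = 0.00148). Its call held in the 11 alternatives in which it was tested. With 9 counts in l-FA replicate 2, it was not tested under the filter of at least 10 counts in every library. The domain therefore held genes of both directions.

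**Figure D2:**
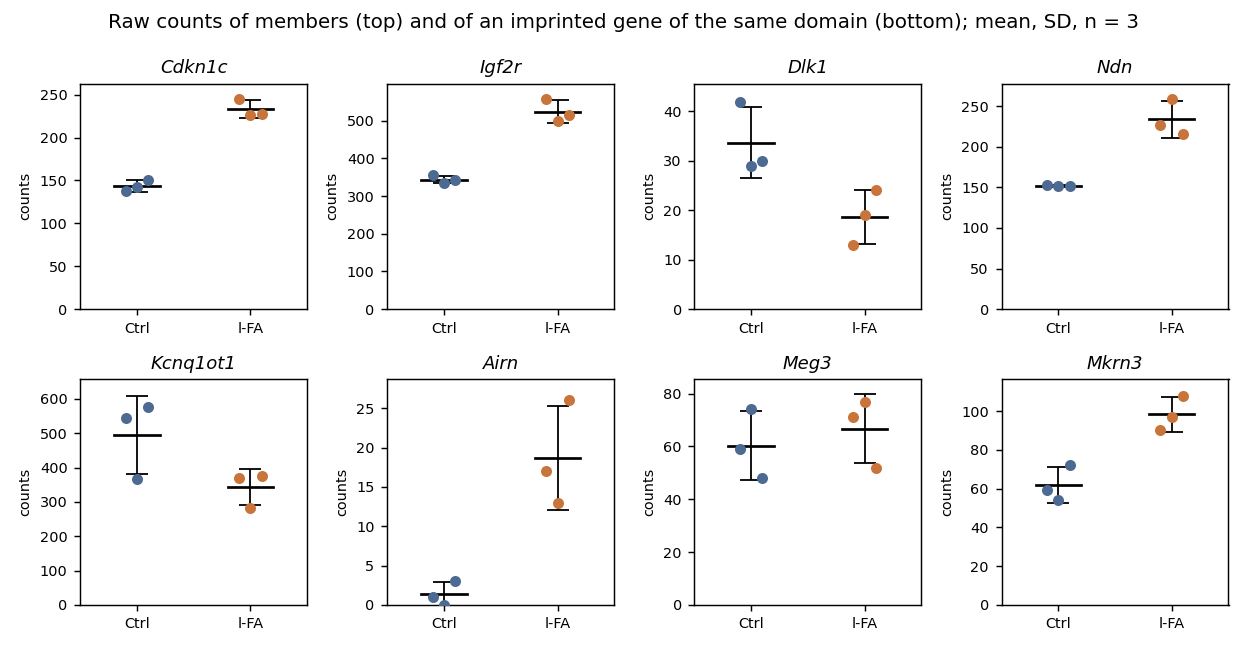
Raw counts per library of 4 members (top row) and of an imprinted gene of the same domain (bottom row), with the mean and SD of 3 libraries per group. Cdkn1c rose while Kcnq1ot1 fell, Igf2r and Airn both rose, Dlk1 fell while the Meg3 groups overlap, and Ndn and Mkrn3 both rose.

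Dlk1 (ENSMUSG00000040856; chromosome 12, 109418749 to 109429262), a transmembrane protein of the Notch ligand family that is expressed from the paternal copy, had 42, 29 and 30 counts in Ctrl and 13, 19 and 24 in l-FA. The groups did not overlap, with 24 counts in the highest l-FA library and 29 in the lowest Ctrl library. Its level went from 1.75 ± 0.381 to 0.923 ± 0.292 CPM (SD, n = 3), a log2 fold change of -0.92 (SE 0.29, edgeR adjusted p = 0.0342). The call was lost without Ctrl replicate 1 (edgeR adjusted p = 0.101), Ctrl replicate 2 (0.0561), l-FA replicate 1 (0.0855) or l-FA replicate 2 (0.0822), and the log2 fold change ranged from -1.14 to -0.69 over the 6 such fits. Meg3 (ENSMUSG00000021268; chromosome 12, 109506879 to 109538165), the maternally expressed noncoding RNA of the same domain, had 59, 74 and 48 counts in Ctrl and 71, 77 and 52 in l-FA. Both groups covered the same range, 2.41 to 3.97 CPM in Ctrl and 2.60 to 3.84 CPM in l-FA (log2 fold change 0.06, SE 0.23, edgeR adjusted p = 0.851). The Meg3 to Dlk1 count ratio was 1.40, 2.55 and 1.60 in Ctrl and 5.46, 4.05 and 2.17 in l-FA, and the groups overlapped (two-sided exact permutation p = 0.2). Rian, the next noncoding RNA along the domain, had 8, 5 and 8 counts in Ctrl and 4, 2 and 1 in l-FA and was too low to test, and Mirg had 2 counts in 1 library.

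Ndn (ENSMUSG00000033585; chromosome 7, 61996317 to 62000010) encodes necdin, a growth suppressor of the MAGE family. It had 153, 152 and 151 counts in Ctrl and 227, 259 and 215 in l-FA, with all l-FA libraries higher. The level rose from 7.90 ± 0.291 to 11.5 ± 1.23 CPM (SD, n = 3), a log2 fold change of 0.54 (SE 0.10, edgeR adjusted p = 0.00447). Among its paternally expressed neighbors, Mkrn3 rose by 0.60 (SE 0.14, edgeR adjusted p = 0.013), and Peg12 had 57 to 63 counts in Ctrl and 67 to 81 in l-FA without passing (0.23, edgeR adjusted p = 0.225). Snrpn, which belongs to the same imprinted region, had 18 to 40 counts in Ctrl and 18 to 33 in l-FA (-0.15, edgeR adjusted p = 0.746).

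Peg3 (ENSMUSG00000002265; chromosome 7, 6706891 to 6733430), a paternally expressed zinc finger protein gene, had 16, 14 and 16 counts in Ctrl and 1, 0 and 3 in l-FA. The lowest Ctrl library held 14 counts, and no l-FA library held more than 3. Over the 3 libraries of a group this was 46 counts against 4, and with the library sizes the Ctrl level was 12.2 times the l-FA level (95% exact binomial interval from 4.44 to 46.5, counting error only). The fitted log2 fold change of -3.48 (SE 0.56, edgeR adjusted p = 0.00242) depends on the prior count, because each l-FA library was at or under 3 counts. It was -4.70 without l-FA replicate 3 and -2.94 without l-FA replicate 2, and the call held in both. Peg3 fell below its own filter when at least 10 counts were required in every library. Plagl1 (ENSMUSG00000019817; chromosome 10, 12936248 to 13007438), a zinc finger transcription factor that acts on other imprinted genes, had 23, 14 and 10 counts in Ctrl and 11, 15 and 14 in l-FA. The groups overlapped (log2 fold change -0.31, SE 0.36, edgeR adjusted p = 0.512), and the sign turned without Ctrl replicate 1 (0.070).

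Stromal genes were read beside Dlk1 and Peg3. How many stromal cells remained after the sort for lineage-negative cells with c-Kit and Sca-1 was not measured. Of 10 stromal markers 9 were listed and 6 tested, with Pdgfrb higher and Sparc lower. Their summed level was 143 to 146 CPM in Ctrl and 180 to 187 in l-FA, most of it from Pdgfrb (127 and 169 CPM). Pdgfra had at most 3 counts in a library, and Cxcl12 had 20, 24 and 10 counts in Ctrl and 5, 3 and 3 in l-FA. Col1a1 (-0.29) and Col3a1 (-0.27) leaned lower and Col1a2 (0.50) and Dcn (0.37) leaned higher on the log2 scale, and none of these 4 passed the test in edgeR. The stromal list as a whole thus did not move in 1 direction. Lum had 5, 2 and 9 counts in Ctrl and 2, 2 and 1 in l-FA. Of the endothelial genes, Cdh5 had 3, 3 and 3 counts in Ctrl and 6, 5 and 9 in l-FA. Sparc and the endothelial Flt4 were lower in l-FA, as were Cxcl12 and Lum, both too low to test. Pdgfrb and the endothelial Kdr were higher, as was Cdh5, also too low to test. The part of stromal or endothelial cells in the Dlk1 and Peg3 values was not tested.

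The levels of the members per gene length were compared in FPKM, the authors' values. Grb10 was highest in Ctrl (3.00 ± 0.194 FPKM, SD, n = 3), followed by Ndn (2.08 ± 0.066), Igf2r (1.81 ± 0.062) and Cdkn1c (1.40 ± 0.045). No neighboring pair among these 4 overlapped between libraries. The remaining members were far lower, at 0.101 FPKM for Dlk1, 0.077 for Meg3, 0.049 for Plagl1 and 0.047 for Peg3, and from Dlk1 down to Peg3 each gene overlapped the next. In l-FA the first 4 kept their order at 3.46, 3.19, 2.75 and 2.27 FPKM, with the ranges of Grb10 and Ndn now overlapping, and Meg3 stood above Dlk1 within their spread. Among all genes tested, the first 4 lay between the 31.6th and 45.4th percentile of FPKM in Ctrl and between the 38.1th and 46.5th in l-FA. These imprinted genes were therefore below the median tested gene in both groups.

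**Figure D3:**
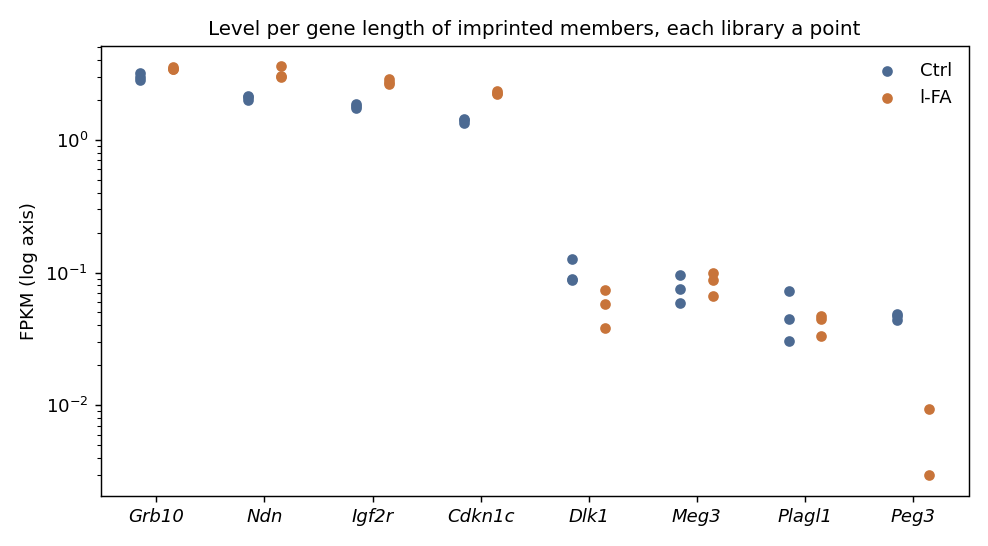
FPKM on a log axis for the 8 members tested, ordered by their Ctrl mean, with each point 1 library; 1 l-FA library without a Peg3 count has no point. Grb10, Ndn, Igf2r and Cdkn1c lie above 1 FPKM in every library, and Dlk1, Meg3, Plagl1 and Peg3 below 0.127 FPKM.

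Beyond the members, 50 other imprinted genes were examined, of which 34 were listed and 26 tested. In edgeR 9 of these rose and 5 fell (53.8% called, against 50.5% of all genes), and 3 were past 2-fold. Among 14 tested genes listed as maternally expressed, 4 rose and 4 fell, with a median log2 fold change of 0.02. Of the genes listed as paternally expressed, 12 were tested, 5 rose and 1 fell, with a median of 0.36. Over all genes tested, 25.5% were called higher and 25.0% lower, with a median of 0.0035. This list leaves out the paternally expressed members, of which Ndn rose, Dlk1 and Peg3 fell and Plagl1 did not pass. Whether the paternally expressed genes moved as a class was not tested. Whether these listed genes are imprinted in HSCs was not measured. The 3 past 2-fold were Airn, Sfmbt2 and Ascl2. Airn passed the low-count filter only through its l-FA libraries, so its rise is not independent of its being tested. Sfmbt2, a Polycomb protein gene, had 21, 30 and 21 counts in Ctrl and 47, 86 and 55 in l-FA (log2 fold change 1.30, SE 0.31, edgeR adjusted p = 0.0118). Peg13, a noncoding RNA, rose from 971, 923 and 963 counts to 1420, 1415 and 1411 (0.49, SE 0.039, edgeR adjusted p = 0.000147). Impact, a translational regulator, rose by 0.33 (SE 0.045, edgeR adjusted p = 0.00122). Slc22a3, a cation transporter gene listed beside Igf2r, rose by 0.29 (SE 0.037, edgeR adjusted p = 0.000919). Commd1, named for copper handling, fell by 0.48 (SE 0.088, edgeR adjusted p = 0.00404). Mest had 8, 11 and 12 counts in Ctrl and 6, 7 and 3 in l-FA, and Peg10, Nnat and Nap1l5 had at most 5 counts, so that these 4 paternally expressed genes were too low to test.

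**Figure D4:**
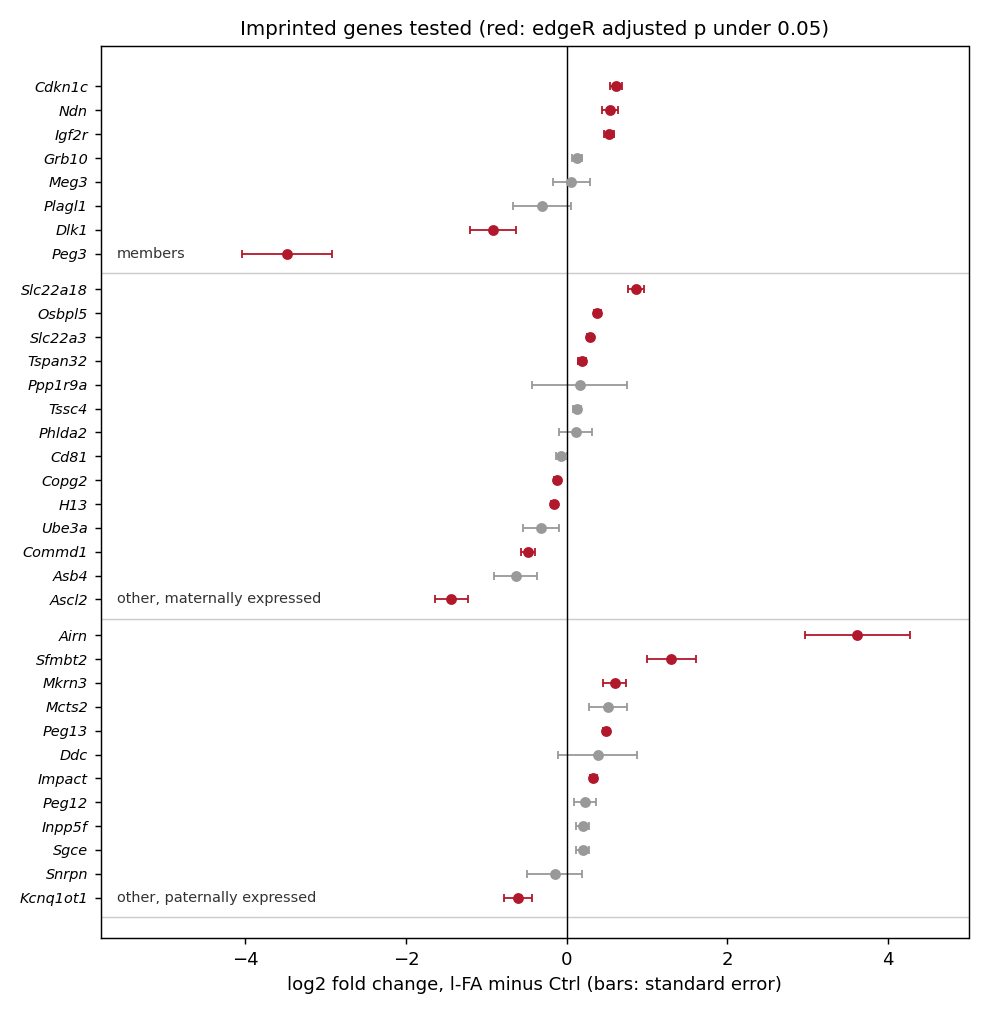
Log2 fold change (l-FA minus Ctrl) with its standard error for the imprinted genes tested, members first and then the other maternally and paternally expressed genes; red marks an edgeR adjusted p under 0.05. Peg3 (-3.48) and Airn (3.62) are the furthest from 0, both with few counts in 1 group, and most of the other genes lie within 1 unit of 0.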

How the data were processed

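RNA of sorted HSCs was amplified (SMART-Seq HT kit) and sequenced in 3 Ctrl and 3 l-FA libraries. For every gene and library the authors deposited raw, unnormalized counts. They also deposited FPKM, which are counts divided by gene length and library total. The submitters' processing notes name HISAT2, SAMtools 1.3.1, StringTie and edgeR with GRCm39; their roles and settings are not given in the sources used here.

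Groups came from the sample titles. The test was edgeR 4.0.16 under R 4.3.3 (TMM, filterByExpr, glmQLFit and glmQLFTest, l-FA minus Ctrl), with Benjamini-Hochberg adjustment over 16520 genes. The SE is the absolute log2 fold change over the root of the F statistic. The study's methods name DESeq2, used here as an alternative (1.42.0), with the limits 0.05 for adjusted p and 2 for fold change. The code was tested on simulated data. CPM are TMM-normalized. FPKM served only for levels between genes.

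The members and gene lists were chosen with earlier results of these data known. Named genes are all members, list genes past 2-fold, up to 6 more per list by adjusted p, genes overlapping a member, and the nearest profiles to Cdkn1c; Igf2bp1, Igf2bp2, Phlda2, Snrpn, Peg12, Tspan32, Mkrn3, Cd81, Tssc4, Dnmt3l, Zfp57, Cdkn1a, Cdkn1b and the genes too low to test were named for their place or role after their values were seen. The profile rule could not be used for H19, which was at the floor. Amplified cDNA without molecular identifiers is not made of independent molecules, so counting intervals cover counting error only. Alternatives were DESeq2, scaling by RLE or by upper quartiles, dropping the filter, a stricter filter (10 counts or more in all 6 libraries), a block for the replicate number, and omission of each library.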

Additional observations from a re-analysis of the deposited data

How the results depend on the processing

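Cdkn1c, Igf2r and Ndn kept their direction and their call under all 12 alternatives, and Peg3 under the 11 in which it was tested. Of 95 member values under an alternative, 86 kept direction and side of the threshold; without single libraries Meg3 ranged from -0.11 to 0.26 and Plagl1 from -0.57 to 0.070 on the log2 scale, both changing sign without passing. The number of members called was 4 or 5 throughout, and past 2-fold it was 1, except 0 with at least 10 counts in every library, a filter that removes Peg3, and 1 to 2 with each library left out, the second being Dlk1 without Ctrl replicate 3 or l-FA replicate 3. With the replicate block 4 members and 7405 genes were called, and Dlk1 did not pass (edgeR adjusted p = 0.0921). Over all genes tested, the deviations of same-numbered libraries were nearly uncorrelated (correlations from -0.035 to 0.019). Single genes could still share a deviation. The replicate block lowered the SE of Kcnq1ot1 from 0.179 to 0.0744 and that of Insr from 0.23 to 0.147. It raised the SE of Dlk1 from 0.285 to 0.346. What same-numbered libraries share beyond the number was not tested. Depth limits H19, Peg3, Plagl1 and Dlk1, each with at most 42 counts in a library.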

Other observations

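Factors that maintain imprints were measured in the same libraries, in a list that also holds other DNA methylation genes, such as Dnmt3l and the Tet genes. Of the 15 genes in this list 14 were tested, with 3 higher and 5 lower in l-FA (57.1%, against 50.5% of all genes) and none past 2-fold. Dnmt3l and Tet1 were among the higher genes and Tet3 among the lower. The count rests in part on calls that were easily lost. Dnmt3l, with 8 to 11 counts in Ctrl and 14 to 24 in l-FA, kept its call in 3 of 11 alternatives and lost it in DESeq2 (adjusted p = 0.0996) and, in edgeR, without any single library other than l-FA replicate 3. Tet1 kept its call in 9 of 12, and Tet3 and Smchd1 each in 10 of 12. Trim28, the corepressor that zinc finger proteins bring to imprinting control regions, fell from 4175, 4380 and 4392 counts to 3218, 3237 and 3077 (log2 fold change -0.52, SE 0.039, edgeR adjusted p = 0.000116). Zfp445, one of those zinc finger proteins, rose by 0.37 (SE 0.038, edgeR adjusted p = 0.000374). The other such protein, Zfp57, had 18 to 23 counts in Ctrl and 14 to 18 in l-FA and did not pass (-0.50, edgeR adjusted p = 0.117). Ctcf, which binds the control region between H19 and Igf2, fell by 0.21 (SE 0.037, edgeR adjusted p = 0.0034), and the maintenance methyltransferase gene Dnmt1 fell by 0.11 (SE 0.017, edgeR adjusted p = 0.00198).

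Among 10 genes of the G1 machinery that p57 acts on or resembles, 1 rose and 3 fell, which is 40% called, against 50.5% of all genes (25.5% higher and 25.0% lower). The fall of Cdk6 (-0.08, edgeR adjusted p = 0.0205) was kept in 6 of 12 alternatives. Cdk2 rose by 0.28 (SE 0.049, edgeR adjusted p = 0.00336), while Ccnd2 fell by 0.27 (SE 0.027, edgeR adjusted p = 0.000348) and Cdk4 by 0.18 (SE 0.030, edgeR adjusted p = 0.00281). Cdkn1b, which encodes p27, the relative of p57, had 93 to 108 counts in Ctrl and 105 to 114 in l-FA (0.04, edgeR adjusted p = 0.807). Cdkn1a, which encodes p21, had 815 to 1265 counts in Ctrl and 1229 to 1272 in l-FA and did not pass (0.21, edgeR adjusted p = 0.265). Whether Cdkn1c differed from its 2 relatives in response was not tested.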
